A study of Mus musculus with 577 samples.

Results

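Single mouse embryonic stem cells (mESCs) that had been freshly dissociated were compared with single mESCs cut out of alcohol-fixed sections by laser capture microdissection (LCM), in libraries that read the 3′ ends of mRNAs. The members were the 45 libraries labelled fresh and the 36 labelled LCM in the table of 3′ read counts, which made up 81 of the 577 samples of the series. Each library is 1 cell. The series describes DRaqL, a way to lyse cells of tissue sections with a denaturing detergent and to quench that detergent before cDNA amplification, and these mESCs served as the homogeneous cells on which sections and fresh cells could be set against each other. All 81 cells had been grown in 2iLIF medium, which holds the GSK inhibitor CHIR99021 at 3 µM, the MEK inhibitor PD0325901 at 0.4 µM and LIF at 1 U/µL. The LCM cells had in addition been pelleted, suspended in 10% polyvinyl alcohol (PVA), snap-frozen, cryosectioned onto membrane slides, dried, fixed with 80% ethanol and stained with 1% cresyl violet before capture. Per the study's descriptions, the cDNAs of both classes were amplified with DRaqL-SC3-seq through 20 cycles, and cDNAs in which the quantitative PCR of the housekeeping gene Arbp failed an outlier test were removed before sequencing, so that the cells are a selection. The sources used here name neither the mESC line nor a clone, and the study states that the cells came from the same culture batch. Each class therefore counted as 1 sample. Every SD below is taken over the cells of a class, and the classes are described side by side without a test. Freezing, sectioning, fixation, staining and laser capture came together in the LCM class and cannot be told apart.

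In 2iLIF the MEK inhibitor blocks differentiation signals from FGF, the GSK inhibitor stabilizes β-catenin, and LIF acts through STAT3. Together they hold mESCs in the naive state, in which Nanog, Sox2, Esrrb and Zfp42 are active. In the amplification, reverse transcription starts from the poly(A) tail of an mRNA with a dT primer, the free end of the cDNA is given a dA tail, and a further dT primer copies the opposite strand, so that both ends of every cDNA are defined by runs of T. Only the stretch before the poly(A) tail has to be intact for an mRNA to be counted at its 3′ end.

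The primers that fix what these libraries can count are shown here, with the run of 24 T that pairs with a poly(A) or poly(dA) tail in capitals. The first starts reverse transcription and the other starts the opposite strand. Both are 48 bases long, and their 24-base anchors carry the same base at 14 positions.
V1(dT)24: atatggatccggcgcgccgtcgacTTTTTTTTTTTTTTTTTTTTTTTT
V3(dT)24: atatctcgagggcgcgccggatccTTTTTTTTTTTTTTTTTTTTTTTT
The PCR primers of the selection step are those of Arbp, the former name of Rplp0, a ribosomal stalk protein. They are given next with those of Dnmt3b, a de novo DNA methyltransferase that returns below. Their target sites show how near to the transcript end these PCR assays lie, not where the sequenced reads fell.
Arbp sense: caaagctgaagcaaaggaagag
Arbp antisense: aattaagcaggctgacttggttg
Dnmt3b sense: ctcgcaaggtgtgggcttttgtaac
Dnmt3b antisense: ctgggcatctgtcatctttgcacc
Matched to the longest coding transcripts of GENCODE M21, the Arbp amplicon of 101 bases began 350 bases before the transcript end, and the Dnmt3b amplicon of 113 bases began 154 bases before it. In the 3′ libraries, Rplp0 averaged a log2(RPM+1) of 12.52 ± 0.25 in fresh cells and 12.55 ± 0.23 in LCM cells (mean ± SD, n = 45 and 36 cells), where RPM is reads per 1000000 counted reads of the library. The gene used to select the cDNAs thus had nearly the same level in both classes, whereas Dnmt3b did not. Since cDNAs with outlying values of Arbp had been removed, the near-equal level of Rplp0 is not an independent control.

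Libraries held 204699 to 2770637 reads in fresh cells (median 2068207) and 379431 to 3440997 in LCM cells (median 1951462), and 4 of them held fewer than 1000000. Several matters of identity touch the results. Library SL01 is LCM in the labels and fresh in the study's source data, and it was kept as LCM. The fresh libraries S25 and S33 correlated with each other at 0.874 in their deviations from the gene means. The highest value among the 1619 other pairs of a class was 0.277. The counts of S25 and S33, thinned to one depth, differed by a chi-square of 2.19 per gene, more than sampling noise. Among the other pairs this chi-square had a median of 11.4 and a lowest value of 4.21. Whether S25 and S33 are separate cells cannot be told from these values, and both were kept. Further, 10 of the cDNAs had also been sequenced in libraries with Y-shaped adapters, 5 under each label, and each of these 10 matched a 3′ library of the other label (r of 0.724 to 0.816, next best at most 0.192), while the 3′ library of its own name gave -0.12 to -0.02. Which set of labels is right cannot be told from these files, and the numbers of genes past the fold are given with and without the libraries concerned, for a gene list where they move by more than 1.5 times. Since reads carried no molecular identifiers, intervals below cover counting error only.

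The markers Nanog, Sox2, Esrrb and Zfp42 were high in both classes. Nanog ranged from 6.19 to 8.84 in fresh cells (median 7.41) and from 5.97 to 8.71 in LCM cells (median 7.50), on the log2(RPM+1) scale. Sox2 ranged from 7.42 to 9.50 (median 8.35) and from 6.07 to 9.04 (median 8.35). Esrrb had medians of 8.54 and 8.51, and Zfp42, which encodes the pluripotency marker REX1, had medians of 9.26 and 9.20. The classes overlapped across almost their whole ranges for each of these genes, and the differences of the means, LCM minus fresh, lay between -0.17 and 0.07. Other genes of the naive state were low by this assay, among them Tbx3 (means of 3.59 and 3.11) and Gbx2 (means of 2.23 and 1.52). Pou5f1, which encodes OCT4, had medians of 2.39 and 1.57 and was found in 38 of 45 fresh and 27 of 36 LCM cells. Markers of other lineages were nearly absent. Of 9 endoderm markers, 8 fibroblast markers and 6 granulosa cell markers, 0 had a mean of the class means of at least 1, and their summed share of reads reached at most 0.0102%, 0.00189% and 0.00065% in a fresh cell and 0.00648%, 0.00413% and 0.000567% in an LCM cell. Of 7 mesoderm, 6 neural, 7 trophoblast and 7 oocyte markers, 1 each was above that level, namely Mesp1, Tubb3, Tfap2c and Zp3, and none of these 4 differed by 2-fold, although Zp3 was at least 2-fold lower in LCM cells without the libraries matched to Y-adapter libraries and when these took the other label.

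Fewer genes were found in LCM cells, at equal depth as well. With all reads, 10729.5 ± 591 genes per fresh cell and 9886 ± 697 per LCM cell had at least 1 read, and when every library was thinned to 204699 reads the numbers were 8050 ± 549 and 7370 ± 536, a difference of -680.1. In fresh cells the thinned number ran from 7085 to 9614 (median 8001), and in LCM cells from 6208 to 8343 (median 7303.5). Most LCM cells thus lay in the lower part of the fresh range or below its lowest cell. Within each class, cells with fewer genes at equal depth lay farther from the other cells of the class, with a Pearson correlation across cells of -0.711 over 45 fresh and -0.787 over 36 LCM cells. The 2 measures share the libraries, and the correlations are descriptions. The share of reads on the 50 most abundant genes of a cell was 24.2% ± 2.27 in fresh and 23.9% ± 1.78 in LCM cells, a difference well within the spread over cells.

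**Figure D1:**
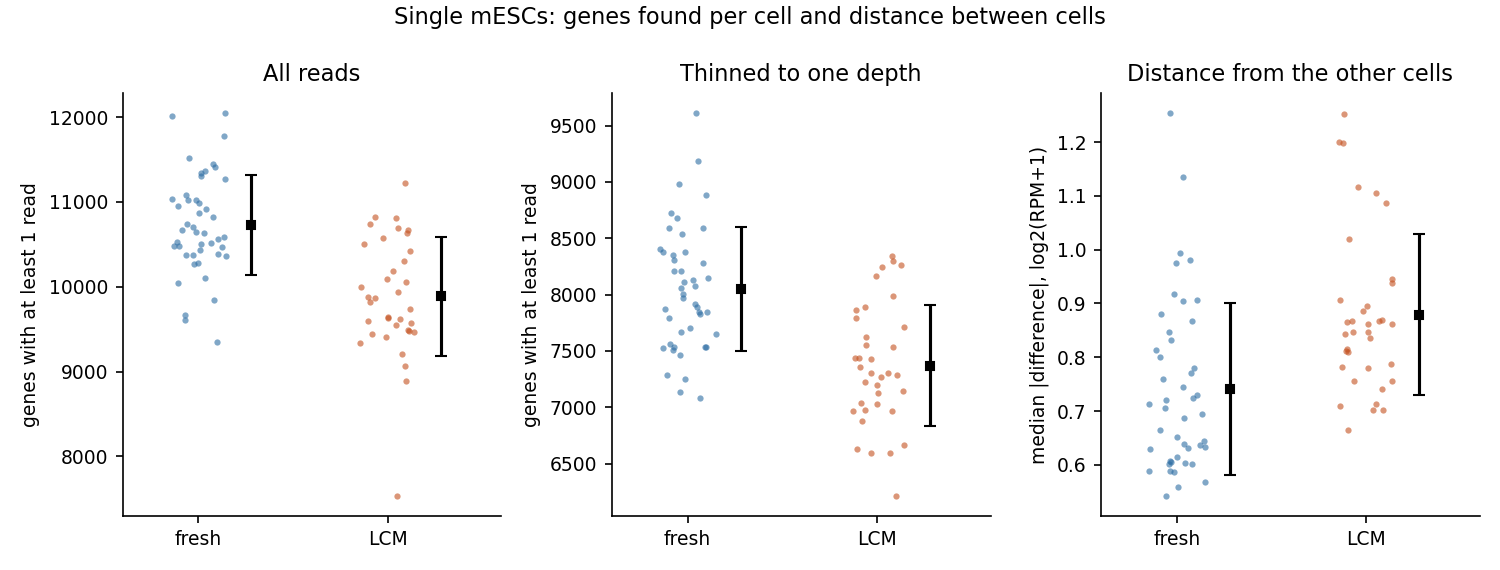
Genes with at least 1 read per cell with all reads (left) and after thinning to one depth (middle), and each cell's median absolute difference in log2(RPM+1) from the mean of the other cells of its class (right). Points are cells, and squares with bars are means ± SD over 45 fresh and 36 LCM cells. LCM cells sit lower in the left and middle panels (9886 against 10729.5 genes, 7370 against 8050) and higher in the right one (0.879 against 0.741).

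Gene by gene, the levels of the 2 classes ran in parallel, with a shift of many genes to lower values in LCM cells. A gene was called measured when the mean of its class means of log2(RPM+1) was at least 1, which 10199 of 22060 genes met. The class means correlated at 0.971 across these genes. The difference had a median of -0.24 and was below 0 for 67.8% of genes, and the middle 90% of genes lay between -1.21 and 0.54. At least 2-fold lower in LCM cells were 950 genes (9.31% of those measured) and at least 2-fold higher were 84 (0.824%). A difference of 4-fold was met by 24 lower and 0 higher genes. The difference exceeded 1 SD over cells, pooled over the classes, for 165 genes, of which 140 were lower. These counts rest on means of logs, to which a cell without reads adds a 0. When the mean RPM of the classes were compared instead, with 1 added to each mean, the median difference was -0.02, with 556 genes at least 2-fold lower and 271 higher.

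Among the 10 genes with the largest differences toward lower levels in LCM cells were a chromatin reader, a pluripotency factor and p53. Spin1, a reader of methylated histone H3 (chr13:51100880-51152546, GRCm38, plus strand), ran from 1.47 to 7.88 (median 5.67) in fresh and from 0 to 6.53 (median 2.65) in LCM cells, a difference of -2.68. It was found in all 45 fresh cells and in 30 of 36 LCM cells, and 34 of the 36 LCM cells lay below the median of the fresh cells. Dppa2, a DNA-binding factor of pluripotent cells that primes genes for later activation (chr16:48303908-48319723, plus strand), had medians of 4.56 and 0.60 and a difference of -2.56. The ranges of the classes overlapped for both genes, and the cells without reads stood almost wholly in the LCM class.

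Trp53, which encodes the p53 tumor suppressor (chr11:69580359-69591873, plus strand), ranged from 0.97 to 8.68 in fresh cells (median 6.44) and from 0 to 8.64 in LCM cells (median 3.81). Its mean difference was -2.29, the ratio of mean RPM was 0.515, and its SD over cells was 1.73 in fresh and 2.65 in LCM cells. The highest LCM cells thus reached the level of the highest fresh cells, but 29 of the 36 LCM cells lay below the fresh median. Cd24a, a glycosylated surface protein (chr10:43578284-43584265, plus strand), had medians of 6.17 and 4.04 and a difference of -2.12. Dnmt3b (chr2:153649450-153687730, plus strand) had medians of 5.07 and 2.59, was found in 45 fresh and 32 LCM cells, and differed by -2.07. Klf5, a Krüppel-like factor of the naive state, had medians of 5.80 and 3.47 and differed by -1.86. The other genes that the rule names as largest were the zinc finger gene Zfp105 (-2.28), D10Wsu102e (-2.20), Glmn (-2.16), Dscr3 (-2.14) and Mbtps1 (-2.10), a protease that activates sterol regulatory proteins. Among 36 LCM cells, between 29 and 34 lay below the fresh median for each of the genes named here.

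Very abundant mRNAs could be lower as well. Eef1a1, the elongation factor that brings aminoacyl-tRNA to the ribosome, took 1.08% ± 0.243 of the reads of fresh cells and 0.601% ± 0.228 of those of LCM cells. On the log2 scale it ranged from 11.88 to 13.98 (median 13.47) in fresh and from 10.99 to 13.57 (median 12.37) in LCM cells, and 35 of the 36 LCM cells lay below the fresh median. The difference of -0.90 was 1.86 times the pooled SD over cells. It was below 0 both in the cells with the lower and in those with the higher cell numbers, at -0.94 and -0.86. The gene was named from all of these cells, which favors the same sign in both.

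The genes that were higher in LCM cells were fewer and differed less. Fam179b (chr12:64965804-65022573, plus strand), also known as Togaram1 and coding for a microtubule-binding protein of cilia, ranged from 0 to 6.81 in fresh cells (median 3.57) and from 1.48 to 8.03 in LCM cells (median 5.42), a difference of 1.90. Traip, an E3 ubiquitin ligase that acts at stalled replication forks (chr9:107950136-107972270, plus strand), ran from 0 to 6.85 (median 2.71) and from 0.60 to 7.55 (median 5.64), a difference of 1.86. For both genes, 7 of the 36 LCM cells lay below the fresh median. Nupr1, a small stress-induced chromatin protein, had medians of 2.25 and 5.20 and a difference of 1.82, but this was 0.74 in the cells with lower numbers and 2.85 in those with higher numbers. Fam64a, which is expressed in mitosis, behaved in the same way (1.59 over all cells, 0.53 and 2.62 in the same sets). Ntpcr, a nucleotide triphosphatase, differed by 1.72, Gm21887, whose reads may be shared with near-identical copies, by 1.54, Cbll1, an E3 ligase of the m6A writer complex, by 1.46, Msmo1, the methylsterol monooxygenase, by 1.43, Pfkl, the liver-type phosphofructokinase, by 1.40, and Gabpb1, a subunit of the ETS factor GABP, by 1.30. All 10 were above 0 in both sets of cell numbers, but they were picked over all cells, which include both sets, so that the choice favored this.

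**Figure D2:**
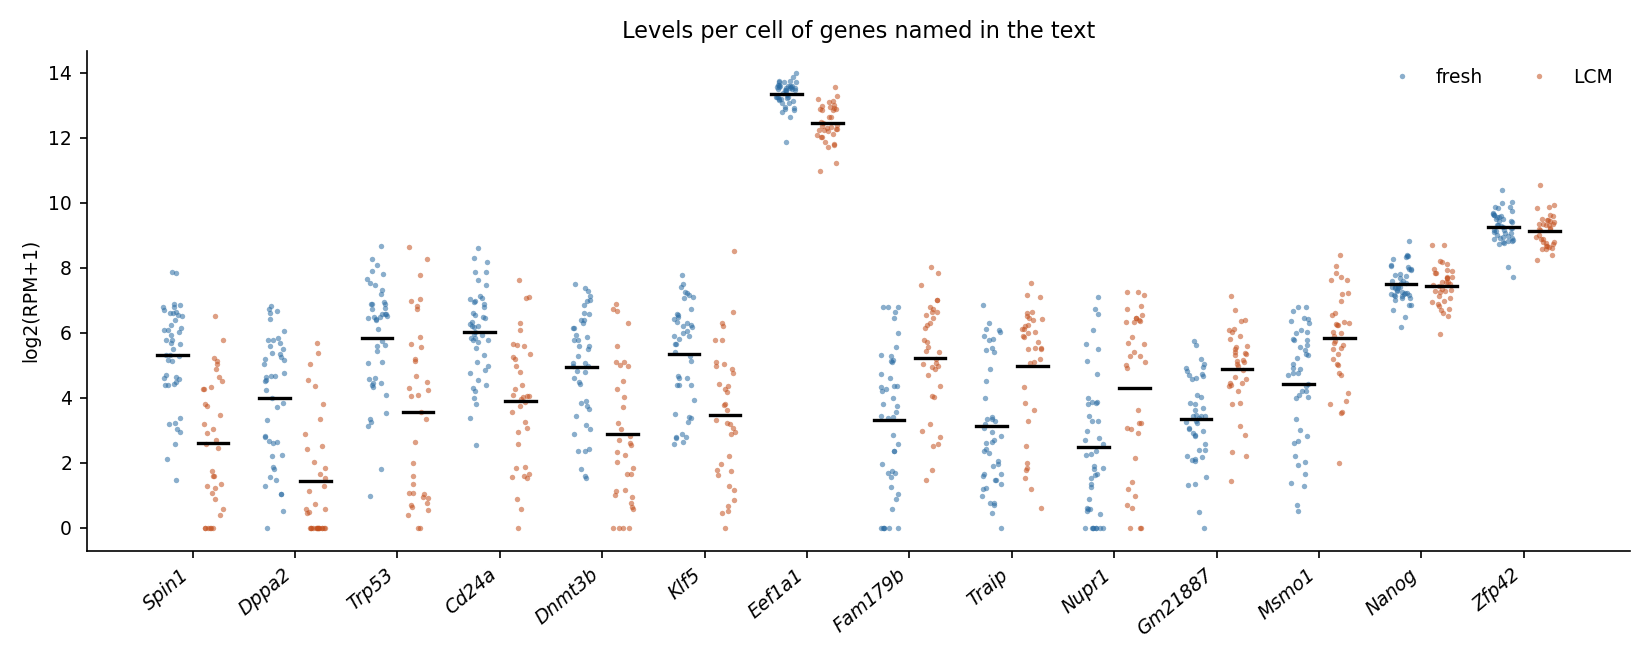
Level of each cell for genes named in the text, as log2(RPM+1) on the vertical axis, with fresh cells at left and LCM cells at right of each gene and bars for the class means. The genes from Spin1 to Eef1a1 are lower in LCM cells with overlapping ranges, those from Fam179b to Msmo1 are higher, and Nanog and Zfp42 are alike in both classes (7.51 and 7.45, 9.27 and 9.15).

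Whether a gene was found at all differed most for low genes. Kmo, kynurenine 3-monooxygenase of tryptophan breakdown, had reads in 29 of 45 fresh cells (64.4%, exact Clopper-Pearson 95% interval 48.8 to 78.1) and in 0 of 36 LCM cells, which, with a floor of 3 cells, allows a share of cells with reads of up to 8.33%. Its summed reads were 256 in fresh cells (exact Poisson 95% interval 226 to 289) and 0 in LCM cells, so that its RPM over the summed reads was at least 67.6-fold lower with a floor of 3 counts over the class. Tmem87a, a Golgi membrane protein, had reads in 40 of 45 fresh cells (88.9%) and 11 of 36 LCM cells (30.6%), with 667 against 18 reads in all. Ptk7, a Wnt co-receptor, was found in 31 and 5 cells, Sidt2, a lysosomal membrane protein, in 40 and 11, and Gm9905 in 32 and 3. In the other direction, Anxa2, a calcium-dependent membrane-binding protein, was found in 13 of 45 fresh cells (28.9%, 16.4 to 44.3) and 23 of 36 LCM cells (63.9%, 46.2 to 79.2), with 190 and 1137 reads. Inpp5a, an inositol phosphatase, was found in 23 and 31 cells, Pmch in 15 and 24, Gm2956 in 11 and 21, and Ccdc166 in 11 and 20. For all 5 genes of the first kind the difference in the share of cells was at least 55 percentage points, against 35 points at most for the second kind.

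The size of the shift depended on how abundant a gene was. Genes with a mean between 1 and 2 had a median difference of -0.28, those between 2 and 3 of -0.37, those between 3 and 4 of -0.37, those between 4 and 6 of -0.25 and those between 6 and 8 of -0.08, while the 510 genes at 8 and over had a median of 0.07. The share of genes at least 2-fold lower was 8.41% in the first of these ranges, 15.0% and 14.9% in the next, then 8.81%, 1.88% and 0.588%. Per cell, 68.8% ± 7.90 of the genes between 1 and 2 were found in fresh cells and 56.7% ± 8.63 in LCM cells. Between 2 and 3 these shares were 88.1% and 77.9%, and between 4 and 6 they were 99.5% and 97.8%. The reads themselves were spread over the ranges in nearly equal shares, for example 1.35% ± 0.275 and 1.25% ± 0.215 between 1 and 2, and 52.5% ± 2.51 and 53% ± 1.78 at 8 and over. In the log2 ratio of mean RPM, here without the added 1, the medians ran from -0.17 between 1 and 2 through -0.08, -0.05, -0.01 and 0.02 to 0.06 at 8 and over, nearer to 0 than those of the means of logs in every range.

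Long transcripts and A+T-rich transcript ends stood lower in LCM cells. When genes were put into 5 equal bins by the length of their longest coding transcript, the median difference went from -0.09 in the shortest bin (median 1231 bases) to -0.19, -0.26, -0.30 and -0.34 in the longest (median 6792 bases), and the share of genes at least 2-fold lower went from 6.68% to 11%. Bins of the genomic span went from -0.08 to -0.33, of the number of exons from -0.18 to -0.31 and of the 3′ UTR from -0.12 to -0.30. For the G+C content of the last 500 bases the order was the reverse, from -0.35 in the lowest bin (median 33.4%) to -0.13 in the highest (median 54.4%). Within ranges of level, the bins of the shortest and longest transcripts had medians of -0.10 and -0.32 between 4 and 6, and of -0.28 and -0.38 between 1 and 2. The lowest and highest bins of G+C had medians of -0.36 and -0.14 between 4 and 6, and of -0.07 and 0.14 at 8 and over. These are weak relations across genes, which are not independent replicates, with Spearman's rho of -0.148 for transcript length, 0.15 for G+C of the end and 0.17 for level. A joint linear fit of the 3 held 5.76% of the variance over 10031 genes, and 12.3% over the 5251 genes with a mean of at least 4 in a class.

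**Figure D3:**
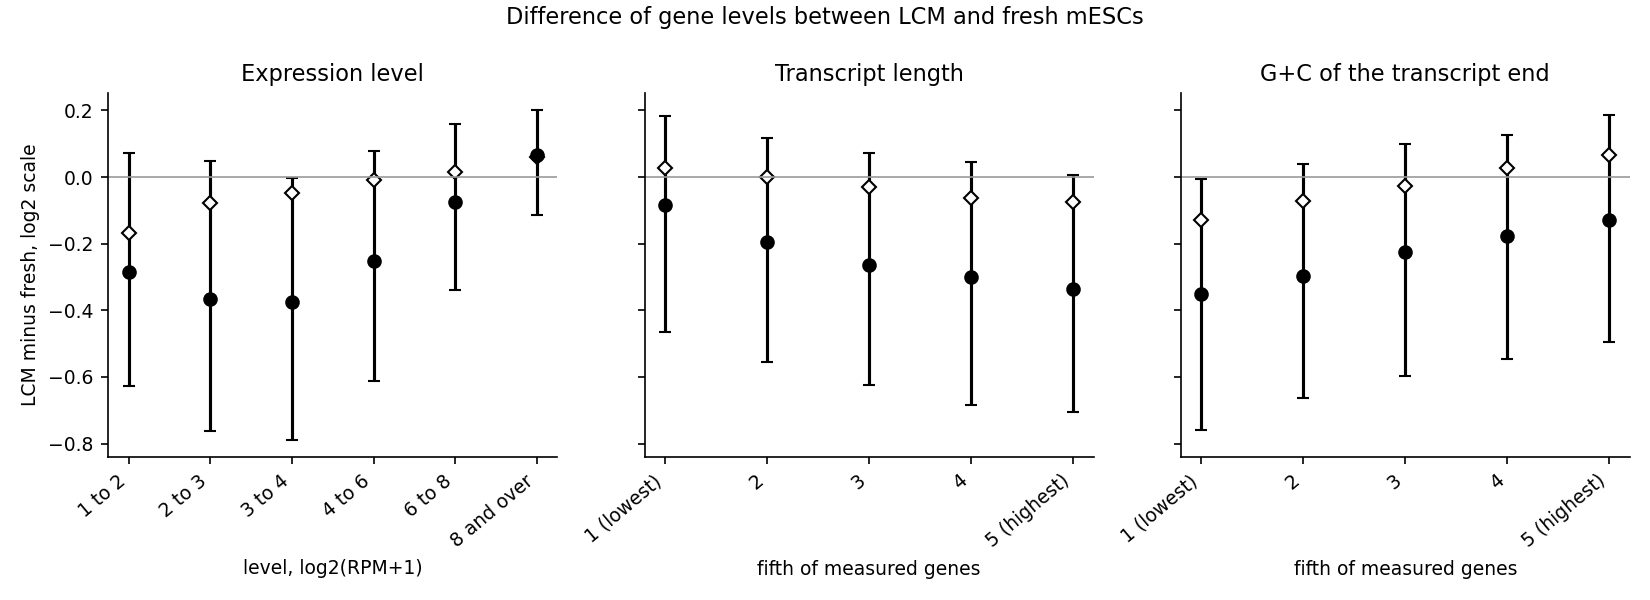
Difference of gene levels, LCM minus fresh, by range of expression level (left), bin of transcript length (middle) and bin of the G+C content of the last 500 bases (right). Circles are medians of the difference of mean log2(RPM+1) with bars from the first to the last quartile over genes, and open diamonds are medians of the log2 ratio of mean RPM, with nothing added. The circles stand between -0.37 and -0.08 below a level of 8, fall with length from -0.09 to -0.34 and go up with G+C from -0.35 to -0.13, and the diamonds lie nearer to 0.

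The 950 lower genes had a median transcript of 3537 bases, a median 3′ UTR of 1285 bases and a median G+C of 41% in the last 500 bases, against 3077, 1095 and 43.4% over all measured genes. The 84 higher genes had medians of 2424 bases, 768 bases and 47.6%. The polyadenylation signal AATAAA, read on the transcript's strand, was found in the last 50 bases of 63.6% of the lower, 71.1% of the higher and 63.5% of all measured transcripts. The lower genes had a median level of 3.21, and 70.2% of them lay under 4, against 52% of all.

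The change of scale moved the median of all genes by 0.213 in the ratio of mean RPM with 1 added to each mean, by -0.12 with a pseudocount of 0.1 and by 0.15 with one of 10. Described by gene lists, most lists lay near the median of -0.24 over all measured genes, and those that lay on either side of it did so by less than 1 on the scale of mean log2(RPM+1). For comparison with the counts below, 67.8% of all measured genes were lower, 9.31% at least 2-fold lower and 0.824% at least 2-fold higher. The lists also differ in level, on which the shift depends. Of genes between 3 and 4, 75.1% were lower, of those between 6 and 8 58.7% and of those at 8 and over 39.6%. Of the 40 naive pluripotency genes, 5 were at least 2-fold lower (12.5%, against 9.31% of all) and 0 higher, with a median of -0.22. The number was 3 when the matched libraries took the Y-adapter label, and 6 without SL01 or without the matched libraries. The 5 were Dppa2, Klf5, Fbxo15 (6.76 and 5.34), the dioxygenase Tet1 (6.90 and 5.70) and Pecam1 (2.52 and 1.43). Klf2, the Krüppel-like factor that MEK inhibition stabilizes, stood on the other side with 6.92 ± 1.10 in fresh and 7.83 ± 0.83 in LCM cells, as did the cell cycle factor Mybl2 (5.51 and 6.41). Klf4 had 6.45 and 5.45. The Krüppel-like factors of this network thus differed in direction, and the summed reads of the list were nearly equal, at 0.953% ± 0.097 and 0.941% ± 0.115. Of 8 measured Wnt target genes, 7 were lower, with a median of -0.61, and 1 was 2-fold lower (2 without SL01 or without the matched libraries). That was Znrf3, a ligase that removes Wnt receptors, at 2.70 ± 1.95 and 0.78 ± 1.26. T, which encodes brachyury, was the exception with 3.85 and 4.51.

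Genes of the integrated stress response, the program by which ATF4 turns on amino acid supply, were mostly higher in LCM cells. Of 19 measured genes, 17 were higher and 2 lower, with a median of 0.40, and their summed share of reads was 0.391% ± 0.111 in fresh and 0.525% ± 0.172 in LCM cells. The aminoacyl-tRNA synthetases Nars (8.28 and 9.0), Aars (8.15 and 8.81) and Sars (6.44 and 7.0) and the serine synthesis enzymes Psat1 (7.84 and 8.39) and Phgdh (6.54 and 7.05) were among them. Atf4 itself had 7.74 and 7.95, and Asns 10.03 and 10.08. Nupr1 was the 1 gene at least 2-fold higher (2 genes without SL01, without the matched libraries or with these relabelled), and the stress-induced leucine sensor Sesn2, with 5.60 and 4.44, was at least 2-fold lower, but not with the matched libraries relabelled. In the Y-adapter libraries of 10 of these cDNAs, grouped by the 3′ library that each matched, the list had a median of -0.21, which is below 0 where the 3′ libraries gave a value above 0. Relative to the median of all genes, the list stood 0.64 higher, and 0.47 higher in the ratio of mean RPM with 1 added. Its median level was 6.80, and all genes between 6 and 8 had a median difference of -0.08.

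Heat shock chaperones stood near the values of all genes, with 12 of 18 lower (67.8% of all) and a median of -0.22 (-0.24 over all). Their median level was 7.05, however, and genes between 6 and 8 had a median of -0.08. Their share of reads was 1.94% ± 0.316 in fresh and 1.60% ± 0.231 in LCM cells. Hsph1, an HSP110-type cochaperone, had a median of 7.58 in fresh and 5.90 in LCM cells and differed by -1.54, past the fold except with the matched libraries relabelled, and the abundant Hsp90aa1 (12.17 and 11.71) and Hspa8 (12.44 and 12.09) were lower by less than 2-fold. The small chaperone Hspb1 was higher, with 6.09 and 6.77. Of 10 measured immediate early genes, 8 were lower, with a median of -0.68 and 0 past the fold, among them Ier2 (4.85 and 3.91) and Dusp1 (4.14 and 3.30). Their median level was 3.61, and all genes between 3 and 4 had a median of -0.37. Of 15 genes of the unfolded protein response, 10 were lower, with a median of -0.08, and in the ratio of mean RPM the median was above 0 and 9 were higher. Herpud1 (1.68 and 3.15) and Sel1l (4.29 and 2.69), both parts of the degradation machinery of the endoplasmic reticulum, lay past the fold in opposite directions. Of 10 hypoxia targets, 6 were higher (5 without SL01, without S33 or with the matched libraries relabelled), with a median of 0.09 and 0 past the fold.

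Of 19 measured genes of p53 and its targets, 14 were lower and 4 at least 2-fold lower, namely Trp53, Zmat3 (5.86 and 4.66), Ddit4l (2.55 and 1.51) and Sesn1 (3.58 and 2.55), with a median of -0.34, against 67.8% and 9.31% of all genes. The 4 became 2 without SL01, without the matched libraries, with these relabelled, without the libraries under 1000000 reads and with TMM or DESeq2 scaling, and 0 in the ratio of mean RPM. The targets Cdkn1a (5.51 and 5.26) and Mdm2 (6.86 and 6.62) had values close to the median over all genes. Of 10 measured genes of DNA methylation and demethylation, 3 were at least 2-fold lower (9.31% of all), with a median of -0.21, near that of all genes. These were Dnmt3b, Tet1 and Uhrf1 (2.70 and 1.52), the last of which recruits the maintenance methyltransferase, and the number was 1 with the matched libraries relabelled. That methyltransferase, Dnmt1, had 6.52 ± 1.19 and 7.18 ± 0.68 and was higher in LCM cells. Of 252 measured C2H2 zinc finger genes, 198 were lower and 30 at least 2-fold lower (11.9%), with a median of -0.42, a median level of 2.6 and a median transcript of 3558 bases. Of all genes between 2 and 3, 72.2% were lower and 15.0% at least 2-fold lower, with a median of -0.37. The median of this list was -0.13 in the ratio of mean RPM. Of 9 measured genes of PRC2, the complex that methylates lysine 27 of histone H3, all 9 were below 0, from -1.18 for Aebp2 (not past the fold with the matched libraries relabelled) to -0.02 for Suz12, but 7 of 9 were with TMM or DESeq2 scaling.

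Cytosolic ribosomal protein and glycolysis genes had medians above 0. Their median levels were 9.79 and 8.73, and all genes at 8 and over had a median of 0.07. Of 77 cytosolic ribosomal protein genes, 66 were higher in LCM cells, with a median of 0.18, a range of -0.29 to 0.45 and 0 past the fold in either direction, and in the ratio of mean RPM 46 of them were higher. Rpsa, a protein of the small subunit, had medians of 12.56 and 12.92, and 4 of the 36 LCM cells lay below the fresh median. The list's median transcript was 937 bases, and its median in the ratio of mean RPM was 0.03. Of 19 glycolysis genes, 15 were higher, with a median of 0.18, and the list took 1.31% ± 0.316 of the reads of fresh and 1.56% ± 0.285 of those of LCM cells. Pgk1, phosphoglycerate kinase, had 10.09 ± 0.75 and 10.79 ± 0.61, Aldoa 10.56 and 11.18, and Gapdh 9.86 and 9.82. The monocarboxylate transporter Slc16a1 was the 1 gene of the list that was at least 2-fold lower (2.70 and 1.47), though not with the matched libraries relabelled. Of 22 genes of cholesterol synthesis, 12 were lower and 10 higher, with a median of -0.06 that was above 0 in the ratio of mean RPM, and Msmo1 was at least 2-fold higher.

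The mitochondrially encoded mRNAs differed among themselves. Their summed share of reads was 8.22% ± 1.91 in fresh and 7.87% ± 1.89 in LCM cells. Of the 13, 9 were lower, with a median of -0.32, from mt-Nd5 at -1.17 (medians of 8.81 and 7.55) over mt-Nd4 at -0.59 and mt-Co1 at -0.39 to mt-Co3 at 0.41 (medians of 13.60 and 13.94). In reads, mt-Co1 took 1.86% ± 0.658 and 1.39% ± 0.402 of the libraries, and mt-Co3 took 1.25% ± 0.306 and 1.66% ± 0.411. Of 36 measured proteasome genes, 26 were lower and 2 at least 2-fold lower, shares near and below the 67.8% and 9.31% of all genes, and the 2 became 0 with the matched libraries relabelled. The 2 were the core genes Psmb2 (6.71 and 5.15) and Psma4 (7.78 ± 0.64 and 6.63 ± 0.95).

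Replication-dependent histone mRNAs, which normally end without a poly(A) tail, were low in these libraries. Of 67 genes, 14 were measured, and all 14 were lower in LCM cells, with a median of -0.41 and 0 past the fold, although with the matched libraries relabelled 11 were lower and 3 higher. Hist1h2ag differed by -1.35 in the cells with lower numbers and by 0.00057 in those with higher numbers. Hist1h2an differed by -1.29 and -0.0012, so that for these genes the difference stood only in the cells with lower numbers. The other members were not followed in these sets. In the ratio of mean RPM with 1 added, 10 of the 14 were at least 2-fold lower, and the median of the list stood at -1.09 relative to that of all genes. Their summed share of reads was 0.0182% ± 0.0238 in fresh and 0.00812% ± 0.00522 in LCM cells, with a highest cell of 0.104% in fresh and 0.0185% in LCM cells. The genes are near-identical copies, so that reads may be shared among them.

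**Figure D4:**
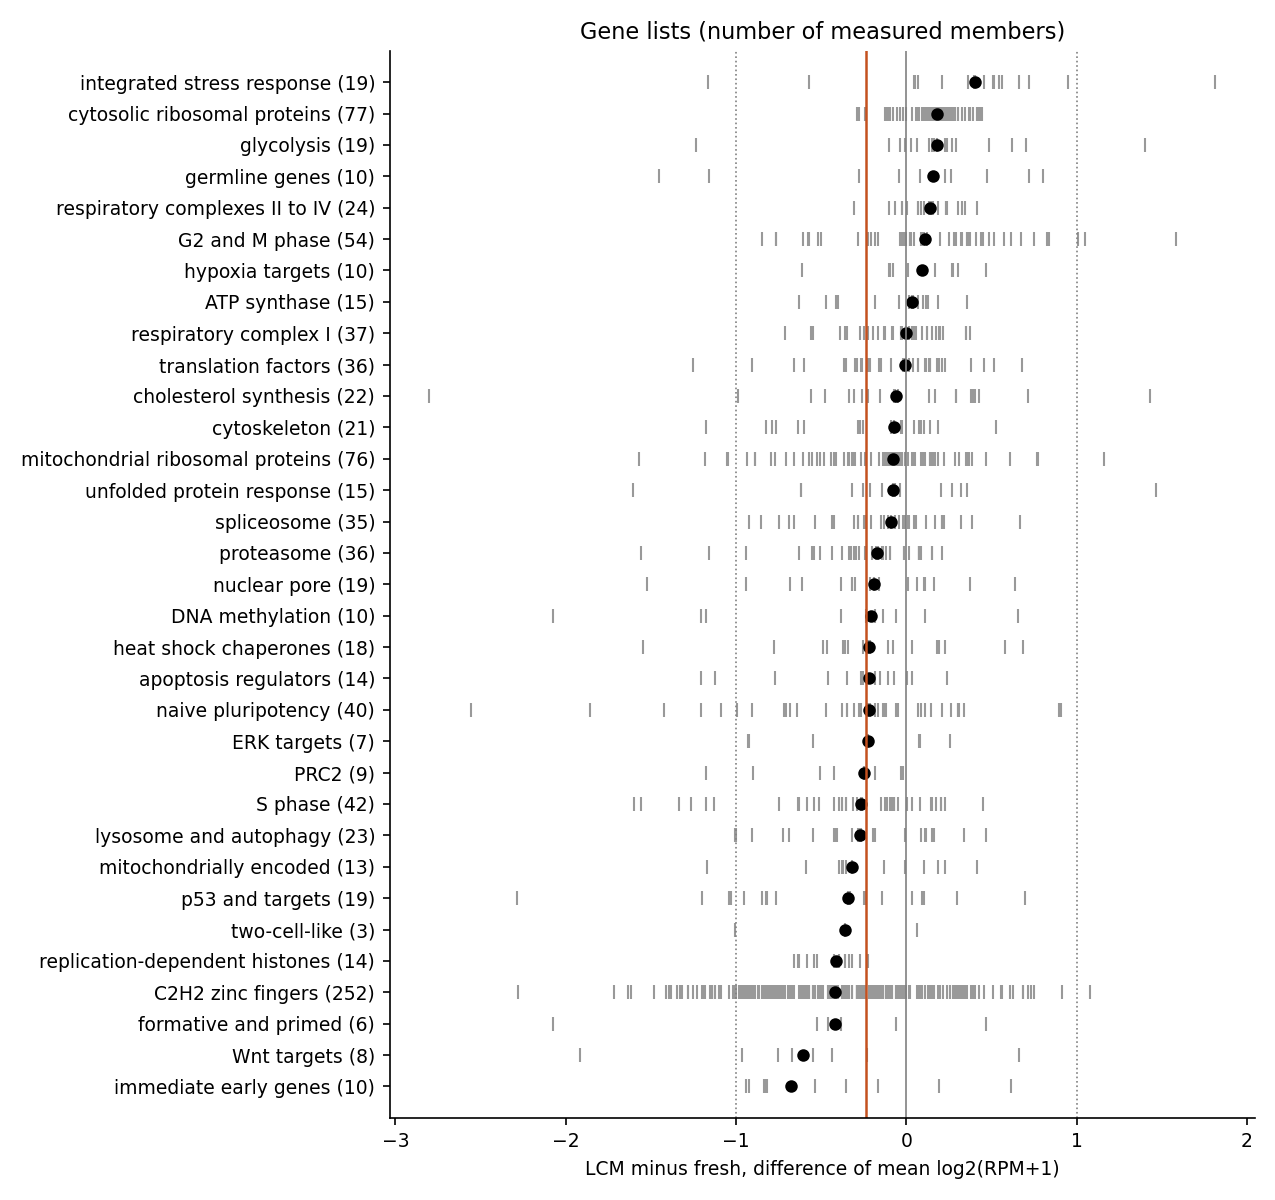
Gene lists with at least 3 measured members. Ticks are the genes, circles the median difference of mean log2(RPM+1), LCM minus fresh, the solid colored line the median over all 10199 measured genes (-0.24), the gray line 0 and the dotted lines a 2-fold difference. The integrated stress response stands highest (0.40), ribosomal proteins and glycolysis at 0.18, and Wnt targets and immediate early genes lowest (-0.61 and -0.68).

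Cells of the LCM class differed more from each other. Over the 4446 genes with a mean of at least 4 in both classes, the SD over cells had a median of 1.17 in fresh and 1.42 in LCM cells, and it was larger in LCM cells for 79% of them, with a median ratio of 1.2. The ratio was 1.00 for genes between 1 and 2, 1.22 between 4 and 6 and between 6 and 8, and 1.06 at 8 and over. Each cell's median absolute difference from the mean of the other cells of its class was 0.741 ± 0.160 in fresh and 0.879 ± 0.150 in LCM cells. In both classes this distance tended to be larger in cells with higher cell numbers. The first and last cells by number had 0.686 and 1.135 in fresh (S01, S45) and 0.757 and 1.198 in LCM (SL01, SL36). The SDs over cells thus include a trend with cell number, whose cause was not tested. The typical gene was found in 50% of fresh cells at a mean of 3.36 RPM and in 50% of LCM cells at 5.19 RPM. The genes that varied in one class varied in the other, with a Spearman's rho of 0.843 between the SDs, which also share the dependence on level.

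Genes with the largest ratios of SDs were Tnks2, a tankyrase (8.11 ± 0.53 in fresh and 7.72 ± 1.54 in LCM cells), Mbtd1 (6.83 ± 0.69 and 5.49 ± 1.95), Helz, an RNA helicase (6.21 ± 0.71 and 4.82 ± 1.93), Adss, an enzyme of AMP synthesis (7.22 ± 0.51 and 6.15 ± 1.26), and Zranb2 (7.30 ± 0.60 and 6.88 ± 1.41). Tnks2 had nearly equal medians, at 8.11 and 8.24, but its lowest LCM cell stood at 2.15 and its lowest fresh cell at 7.24. The ratio therefore came from single LCM cells far below the range of the fresh cells. Among the genes with the smallest ratios, Tpt1, which encodes translationally controlled tumor protein, had 11.33 ± 0.43 and 11.60 ± 0.21, and the ribosomal protein gene Rpl27 had 8.89 ± 0.96 and 9.03 ± 0.50. The rule also named the pseudogenes Rpl27-ps3 and Rps18-ps3 here, whose reads may be shared with their parent genes. The polycomb gene Phc1 had 6.35 ± 1.23 and 6.80 ± 0.66. The mean level of all 77 ribosomal protein genes had an SD over cells of 0.679 in fresh and 0.390 in LCM cells, and their share of reads ran from 6.05% to 15.9% in fresh and from 8.57% to 16.1% in LCM cells. Fresh cells were thus the more varied class for cytosolic ribosomal proteins. Their share tended to fall with cell number there, with 15.9% in S01 and 8.44% in S45. The median SD over cells of the single genes was 0.832 in fresh and 0.513 in LCM cells there, but 0.538 and 0.684 for translation factors and 1.22 and 1.43 for mitochondrial ribosomal proteins.

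Some genes ranged from almost no reads to high levels in both classes. Lefty1, a secreted inhibitor of Nodal, had the largest SD in each class among genes with a mean of at least 4, with a range from 0.78 to 10.18 in fresh (median 6.14) and from 0 to 10.55 in LCM cells (median 6.06). The X-linked Xlr5a, of a family of near-identical copies, ran from 0 to 9.91 and from 0 to 7.40. The helicase gene Pif1, the spindle gene Nusap1, Pmel and Slc9a3r2 had SDs of 2.77 to 2.85 in LCM cells and of 1.78 to 2.18 in fresh cells.

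Cell cycle genes varied among the cells of both classes. The mean log2(RPM+1) of 54 genes of G2 and M phase ran from 4.31 to 7.44 in fresh (median 5.92) and from 4.77 to 7.32 in LCM cells (median 6.00), and that of 42 genes of S phase from 5.08 to 6.65 (median 6.08) and from 4.72 to 6.76 (median 5.61). The 2 means correlated across cells at -0.284 in fresh and -0.328 in LCM cells, over libraries that they share. In both classes the G2 and M phase mean tended to be lower in cells with higher cell numbers. Its highest cells were S19 and SL12 and its lowest S43 and SL31, and the cause of this trend was not tested. Between the classes, 35 of 54 genes of G2 and M phase were higher in LCM cells, with a median of 0.11, and Fam64a, Kif20b (3.17 and 4.18) and G2e3 (2.83 and 3.88) were at least 2-fold higher (0.824% of all genes). The 3 became 1 without S33 and with the matched libraries relabelled. Fam64a differed by 0.53 in the cells with lower numbers and by 2.62 in those with higher numbers. Nusap1 differed by -0.03 and 1.21 in these sets, but G2e3 by 0.98 and 1.09. Of 42 genes of S phase, 32 were lower and 6 at least 2-fold lower, with a median of -0.26, against 67.8%, 9.31% and a median of -0.24 over all genes. The 6 became 4 with the matched libraries relabelled. The 6 that were at least 2-fold lower were Dscc1 (4.25 and 2.66), Casp8ap2 (4.83 and 3.27), the ribonucleotide reductase subunit Rrm2 (6.66 and 5.32), Dtl (5.97 and 4.71), Uhrf1 and Ung (1.94 and 0.81). The shares of reads of these lists, 0.716% ± 0.191 and 0.680% ± 0.180 for S phase and 0.694% ± 0.314 and 0.763% ± 0.266 for G2 and M phase, differed by less than their spread over cells. The LCM cell with the highest S phase mean was SL01, the cell whose class is in doubt. Of 22 genes of the 2-cell-like state, 3 were measured, and the highest share of reads of the list was 0.0259% in a fresh cell (S37) and 0.0173% in an LCM cell, so that no cell was dominated by them.

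**Figure D5:**
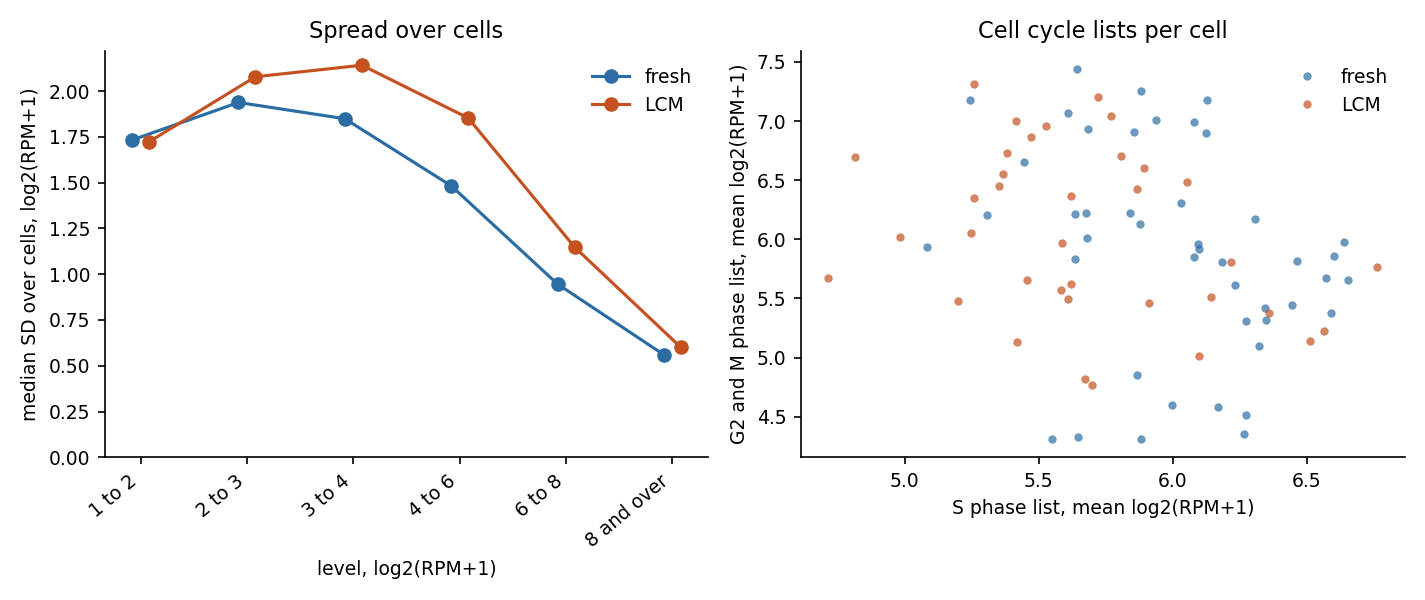
Left, median SD over cells of log2(RPM+1) for genes in ranges of expression level, for fresh and LCM cells. Right, mean log2(RPM+1) of the S phase list against that of the G2 and M phase list, 1 point per cell. The SDs of LCM cells lie above those of fresh cells from a level of 2 on, and the lists span 4.72 to 6.76 and 4.31 to 7.44 over the 81 cells.

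The differences were then followed in sets of cells by number and in second libraries of some of the cDNAs. When the cells of each class were divided by cell number, the first 22 fresh and 18 LCM cells and the last 23 and 18 gave differences that correlated at 0.264 across genes. Of 1338 genes at least 2-fold lower in the first cells, 80.2% were below 0 and 30.8% at least 2-fold lower in the last, where 64.3% of all genes were below 0 and 15.2% were 2-fold lower. Of 188 genes at least 2-fold higher in the first cells, 58% were above 0 and 14.9% 2-fold higher in the last, against 35.7% and 3.09% of all. Spin1 (-2.71 and -2.67), Dppa2 (-2.48 and -2.63), Hsph1 (-1.48 and -1.62), Traip (1.71 and 1.97) and Msmo1 (1.46 and 1.41) had nearly the same difference in both, and Tnks2 (0.28 and -1.05) and Mrps30 (0.39 and 1.91) did not. The genes named here were picked over all cells, which include both sets. In the Y-adapter libraries, grouped by matched 3′ library, 760 of the 950 lower genes (80.0%) were below 0, against 53.8% of all, and 63 of the 84 higher genes were above 0. There Spin1 differed by -1.97, Trp53 by -3.19, Dnmt3b by -2.28, Fam179b by 2.26 and Traip by 1.78, but Nupr1 by -0.68 and Anxa2 by -1.44. These libraries come from 10 of the same cDNAs and are a second reading of them, not other cells. The 950 and 84 genes were chosen with the 3′ libraries of these cDNAs included, which favors the same sign here. By the labels of the Y-adapter libraries themselves every one of these signs would be the opposite.

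When the 10 matched 3′ libraries were given the label of their Y-adapter library instead, 643 genes were at least 2-fold lower and 70 higher, and when they were left out, 1105 and 98. Without SL01 the counts were 974 and 82, without S33 948 and 80, and without the libraries under 1000000 reads 916 and 91. The direction of the shift to lower values was thus the same under each of these choices. For Trp53, D10Wsu102e, Glmn, Ntpcr, Fam64a and Pfkl another gene ends within 10 kb on the opposite strand, and whether the counting used strand is not given in the sources used here, so reads of such neighbors could be included.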

How the data were processed

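Single mESC cDNAs were sequenced at their 3′ ends. The deposited values were whole read counts per gene, which the authors made from reads trimmed and aligned to GRCm38, and the submitters' processing notes name cutadapt 1.16, HISAT2 2.1.0 and HTSeq 0.10.0, with fastp 0.20.0 and featureCounts 2.0.1. Whether counting used strand is not given in the sources used here.

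From these counts, RPM per library and log2(RPM+1) were computed in python 3.11.15 (scipy 1.17.1, pandas 2.3.3, numpy 2.4.6), and a gene was measured when the mean of the class means was at least 1. A gene was past the fold at a difference of 1 on the log2 scale. TMM factors came from edgeR 4.0.16 and size factors from DESeq2 1.42.0 in R 4.3.3, for scaling only. For equal depth, libraries were thinned to 204699 reads (random seed 11). Features were taken from the longest coding transcript of GENCODE M21, matched for 21667 of 22060 genes and 10031 of 10199 measured ones. Scripts were tested on simulated data.

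Classes came from the labels. Each class counted as 1 sample, so that no p-value is given. Shares have exact Clopper-Pearson and sums exact Poisson 95% intervals. The rule for named genes took the 10 largest differences in each direction among genes with a mean of at least 4 in a class, the 5 largest differences in detection in each direction, the 5 largest SDs in each class, the 5 largest and smallest ratios of SDs, 2 members per gene list and direction, and the markers. A gene that the rule names is not reported here. Other list members printed were chosen after their values were seen. The members and lists were chosen with earlier results of these data known. Alternatives changed the pseudocount, scaling, filter, depth, labels and the libraries kept. Of the other tables of the series, only the exon counts of the Y-adapter libraries, summed by gene, and the counts of the cells of 1 mouse were used.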

Additional observations from a re-analysis of the deposited data

How the results depend on the processing

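Of 519 recomputed values, 492 stayed within the spread over cells or within 1.5 times of the count, and 27 moved. Here and for the named genes below, that spread is the SD of single cells or of pairs of cells. It is a wide margin for a value taken over a whole class, so these tallies say little on how stable the values are. The medians of 11 of 33 gene lists changed sign under at least 1 alternative, by less than the spread over cells. The set of measured genes was held fixed except where the filter itself was the choice. The numbers of genes at least 2-fold lower and higher were 2281 and 180 with a pseudocount of 0.1, 71 and 7 with one of 10, 556 and 271 in the ratio of mean RPM (with 1 added to each mean), 283 and 35 among genes with a mean of at least 4, and 1551 and 315 in the last cells by number. The number higher was 128 with thinned libraries and 188 in the first cells. With a pseudocount of 0.1 the median difference was -0.64 between levels of 1 and 2 and -0.69 between 2 and 3, and in the ratio of mean RPM with 1 added it was -0.0714 between 2 and 3 and -0.0474 between 3 and 4. The median of C2H2 zinc fingers was -0.71 with a pseudocount of 0.1, -0.15 with one of 10 and -0.13 in the ratio of mean RPM. Median correlations of pairs of fresh and of LCM cells, 0.652 and 0.615 over measured genes, were 0.596 and 0.569 with thinned libraries and 0.716 and 0.677 with a pseudocount of 10. The RPM at which a gene was found in 50% of cells was 1.54 times as high in LCM as in fresh cells, and this ratio was 1.37 with thinned libraries, 1.47 without SL01, 1.68 without the libraries matched to Y-adapter libraries and 1.61 without those under 1000000 reads. The causes were not tested. Of 1892 recomputed differences of the 172 genes that the rule named, 7 moved beyond the spread over cells, all under a pseudocount of 0.1 or 10 and all of genes named for detection (Kmo, Gm9905, Sidt2, Tmem87a and Ptk7), and none of those at least 2-fold different changed sign. Depth limits what can be said of genes between levels of 1 and 2, where a cell without reads may still hold the mRNA. No paired analysis was possible because the cell numbers only name cells and no result comes from a test.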

Other observations

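The series also holds fresh and laser-captured cells from the ovaries of 1 mouse in proestrus. The captured cells came from sections of 1 frozen ovary and were prepared with DRaqL-Smart-seq2, and the fresh cells came from cumulus-oocyte complexes of the other ovary, were isolated in medium with dibutyryl-cAMP and were prepared with Smart-seq2. In granulosa cells (35 fresh and 70 captured), the differences of gene levels correlated with those of the mESCs at -0.141 over 8326 genes, and in oocytes (14 and 8) at -0.05 over 8797 genes. Of the genes at least 2-fold lower in LCM mESCs, 395 of 814 (48.5%) were below 0 in granulosa cells, where 56% of all genes were, and 366 of 838 (43.7%) were below 0 in oocytes, where 46.8% of all genes were. By bins of transcript length, from shortest to longest, the median difference in granulosa cells went from -1.48 to 1.04 and in oocytes from -0.49 to 0.68, the opposite order to that of the mESCs. The preparation, medium, cell type and depth differ between these sets, and their parts in the difference cannot be told apart. Msmo1, which was 1.43 higher in LCM mESCs, differed by -3.26 in granulosa cells and by -2.23 in oocytes. Spin1 was below 0 in all 3 cell types, at -2.68, -0.58 and -1.86.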
